A study of Mus musculus with 6 samples.

Results

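10 genes of the circadian clock were followed on 6 arrays of mouse fracture callus: Clock, Npas2, Per1, Per2, Per3, Cry1, Cry2, Dbp, Tef and Nfil3. They were chosen by symbol, as all probe sets that the platform annotation assigns to 1 of these 10 genes alone, which gave 24 of the 45037 probe sets tested. The arrays compare Cyp24a1 (-/-) mice, which lack the 24-hydroxylase that inactivates vitamin D hormone and are called null here, with Cyp24a1 (+/-) littermates, called heterozygous, 3 arrays each. The controls therefore carry 1 disrupted allele, and no wild-type callus is among the arrays used here. All mice were 12 weeks old, on a mixed C57BL6J x 129SV background, and had a tibial osteotomy held by an intramedullary rod. The callus, the repair tissue at the cut, was collected on day 14. The hour of collection is not given in the labels, and neither are the lighting schedule, the way the allele was made or whether each array holds a separate mouse. The p-values below measure only the spread between these arrays.

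The clock is a feedback loop of transcription that runs in nearly every cell with a period of about a day. CLOCK, or its close relative NPAS2 in its place, pairs with BMAL1 (gene Arntl) and switches on genes that carry an E-box. Among these are the Per and Cry genes, whose proteins return to the nucleus and inhibit the pair, and Nr1d1 and Nr1d2, whose proteins repress Arntl, Npas2, Clock, Nfil3 and Cry1. A further loop acts through D-boxes, which are bound by the activators DBP, TEF and HLF and by the repressor NFIL3. In tissues of mice kept in light and dark, transcripts of the Per genes, Dbp and Tef are known to peak from the later part of the day into the evening, and those of Clock, Npas2, Cry1 and Nfil3 in the night to early morning. Their levels relative to each other therefore carry information on the hour at which a tissue was taken. Per1, and to a lesser degree Per2, is also induced by glucocorticoids and by cAMP signalling.

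The stretches of DNA through which the loop reads its own genes can be seen upstream of several members. RefSeq promoters on GRCm38.p6 were found for 9 of the 10 genes, 13 promoters in all, and the 250 bases before each start were searched on both strands for the E-box CACGTG, the E'-box CACGTT, the cAMP response element TGACGTCA, and the D-box TTATGTAA or TTACGTAA. Those of Per1, Per3, Cry1 and Tef are printed because they hold the loop's motifs and show its 2 arms, E-box and D-box, side by side. They run 5′ to 3′ on the gene's own strand, with matches of these motifs in capitals, and lie at chr11:69098699-69098948 (plus strand), chr4:151044666-151044915 (minus strand), chr10:85185055-85185304 (minus strand) and chr15:81802423-81802672 (plus strand).
Per1: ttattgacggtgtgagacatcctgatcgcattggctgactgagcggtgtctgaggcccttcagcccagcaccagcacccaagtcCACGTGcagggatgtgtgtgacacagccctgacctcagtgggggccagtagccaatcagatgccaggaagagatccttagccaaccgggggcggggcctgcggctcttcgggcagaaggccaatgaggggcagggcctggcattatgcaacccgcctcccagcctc
Per3: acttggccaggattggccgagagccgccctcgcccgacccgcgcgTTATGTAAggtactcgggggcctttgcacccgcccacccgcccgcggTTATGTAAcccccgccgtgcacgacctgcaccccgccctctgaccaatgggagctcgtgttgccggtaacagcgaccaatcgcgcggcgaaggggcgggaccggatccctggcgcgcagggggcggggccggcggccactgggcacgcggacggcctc
Cry1: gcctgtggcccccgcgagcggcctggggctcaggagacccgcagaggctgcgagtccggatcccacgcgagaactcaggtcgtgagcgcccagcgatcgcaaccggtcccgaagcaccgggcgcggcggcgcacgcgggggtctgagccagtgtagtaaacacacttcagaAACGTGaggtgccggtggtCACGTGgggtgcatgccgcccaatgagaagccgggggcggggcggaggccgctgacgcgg
Tef: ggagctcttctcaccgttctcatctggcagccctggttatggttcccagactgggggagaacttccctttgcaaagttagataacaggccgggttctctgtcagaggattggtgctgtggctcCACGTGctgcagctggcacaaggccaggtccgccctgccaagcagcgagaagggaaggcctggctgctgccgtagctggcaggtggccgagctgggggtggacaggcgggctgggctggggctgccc
The E-box of Per1 begins 166 bases before the start, that of Tef 127 bases and that of Cry1 60 bases. Cry1 also has an E'-box, read AACGTG on the printed strand, 79 bases before the start. Per3 has a pair of D-boxes, at 205 and 158 bases. The E-box was present in 4 of the 13 member windows, counting a second Tef start, and in 6.02% of the 32851 promoters in the table. The E'-box was present in 2 of 13 (Cry1 and Cry2) and in 3.85% of all, and the D-box TTATGTAA in 1 of 13 and 0.819%. The cAMP response element was found in 0 of 13 and in 1.55% of all, and TTACGTAA in 0 of 13 and in 0.113%. Shorter letters were searched as well: TGACG, which lies inside the full cAMP response element, in 5 of 13 and 17.8% of all, AGGTCA, the core read by ROR and REV-ERB proteins, in 3 of 13 and 14%, and CCAAT in 9 of 13 and 33.8%. A match describes these letters only and is not evidence of binding in callus.

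The deposited log2 values ran from 1.65 to 14.49 with array medians of 4.55 to 4.59, and the number of arrays limits the precision. A guide to background came from transcripts that a tissue of the other sex does not make: Xist on the 4 arrays with Y-linked transcripts, and Y-linked genes on the 2 arrays with Xist (null replicate 1 and heterozygous replicate 1). These 30 values reached up to 3.52, called the silent level below. Skeletal muscle markers, which do not define callus, had mean levels of 13.38 to 14.44. All 8 of them and all 8 osteoblast markers lay above the silent level on every array. The chondrocyte list had 6 of 8 and the osteoclast list 5 of 7 there, the macrophage list 8 of 8, the keratinocyte list 7 of 7, the endothelial list 7 of 7 and the adipocyte list 5 of 5 measured. The lymphocyte list had 4 of 7, the neutrophil list 7 of 7 and the erythroid list 3 of 7. For scale, Per3 1460662_at, with a mean of 3.58, stood at the 37.2th percentile of probe set means. Most probe sets thus averaged above the silent level, and a count above it does not by itself set a list apart. Marrow content was uneven: after each of 7 neutrophil markers was centred over the arrays, their average was -3.17 for null replicate 1, -3.75 for heterozygous replicate 3 and at least 1.54 elsewhere, and the average of 7 erythroid markers was -3.32 and -2.81 for these and at least 0.97 elsewhere. Each group holds 1 such marrow-poor array. In bulk tissue, fewer cells of a type and less RNA per cell cannot be told apart.

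The clock genes did not separate null from heterozygous callus. None of the 24 probe sets passed limma's test with adjustment over all 45037 probe sets (adjusted p = 0.999 for each), where the share passing over all probe sets was 0% as well. An unadjusted p under 0.05 was reached by 2 of the 24, 1 of Clock and 1 of Tef, both lower in null callus, and by 3.69% of all probe sets (2.06% in the lower direction). The groups did not overlap for 1 of the 24, again lower in null callus, against 8.95% of all probe sets (5.38% with null lower). With 14 of 24 lower in null callus and 52% of all probe sets lower, direction was mixed too. The median difference, null minus heterozygous, was -0.10 over the 24 and -0.01 over all probe sets. When each gene was taken by its probe set with the highest mean, 5 of 10 were higher and 5 lower, with a median of -0.02, and 0 of 10 had an unadjusted p under 0.05, against 4.49% of the 18193 genes. The count of 2 became 0 without heterozygous replicate 1, 1 without null replicate 1 and 1 without heterozygous replicate 3. It rose to 3 without null replicate 3, without heterozygous replicate 2 and with the arrays centred on their medians. For 3 against 3 arrays an exact permutation p cannot go below 0.1.

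Markers of other cell types were compared between the same groups, and none passed limma's test with adjustment. Over all 18193 genes, 9033 were higher in null callus and 4.49% had an unadjusted p under 0.05. All 8 macrophage markers had a higher mean in null callus (median difference 0.47, 2 of 8 at an unadjusted p under 0.05), with average levels of -0.37 to 0.98 on the null arrays and -0.74 to 0.15 on the heterozygous arrays. All 7 keratinocyte markers were higher too (median 1.30, 1 of 7 at that threshold), at -0.05 to 1.39 against -1.91 to 0.52, as were all 7 endothelial markers (median 0.23, 0 of 7), at 0.02 to 0.26 against -0.36 to 0.12. The 8 muscle markers were all lower (median -0.05, 0 of 8), at -0.31 to 0.13 against -0.03 to 0.11. Before centring, these muscle genes had means of 13.38 to 14.44, near the highest deposited value of 14.49. Whether that narrowed their differences was not tested. Of 8 osteoblast markers 6 were lower and 2 higher (median -0.22, 2 of 8), and of 7 neutrophil markers 6 were higher (median 0.35, 0 of 7). The other lists were mixed, with 0 at that threshold: erythroid 2 higher and 5 lower, chondrocyte 3 and 5, osteoclast 3 and 4, adipocyte 2 and 3, and lymphocyte 2 and 5. These levels are means of log2 values centred over the arrays. Their part in the clock values was not tested.

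**Figure D1:**
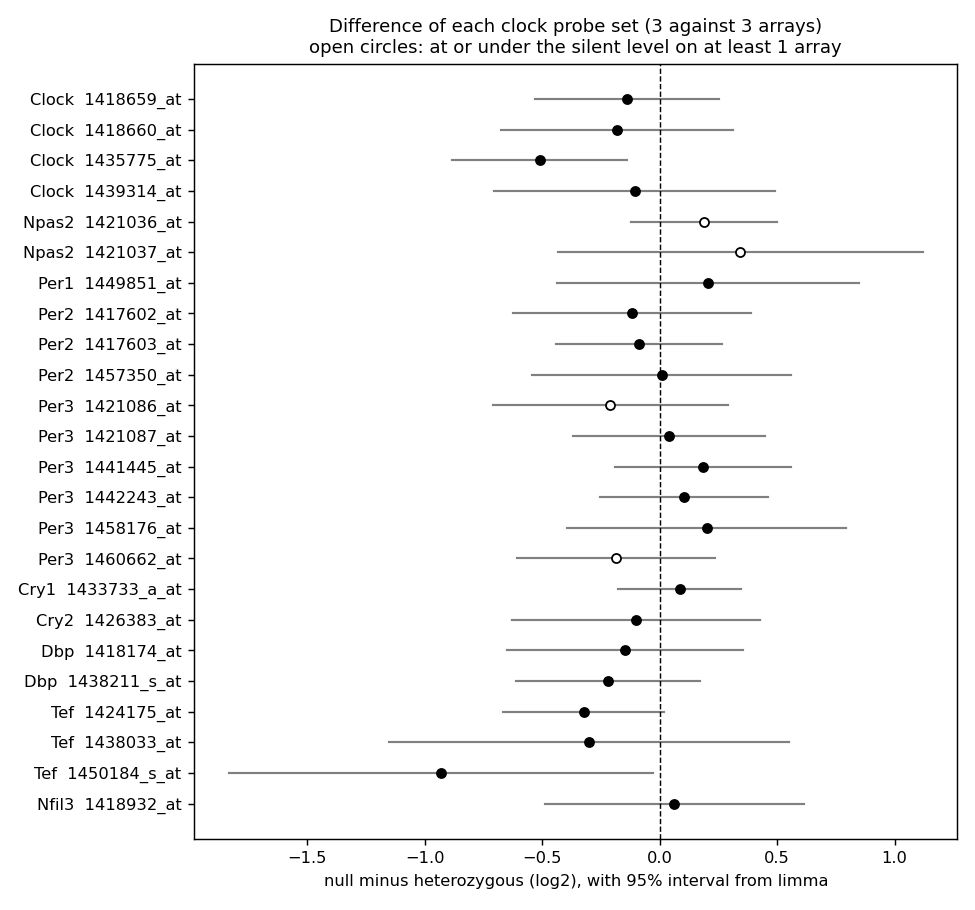
Null minus heterozygous difference on the log2 scale for each of the 24 clock probe sets (points) with limma's 95% interval (lines). Open circles mark the 4 probe sets at or under the silent level of 3.52 on at least 1 array. The intervals of 22 probe sets include 0, and those of Clock 1435775_at and Tef 1450184_s_at lie below it.

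Of the activators, Clock, which encodes the partner of BMAL1, was measured by 4 probe sets, all with a lower mean in null callus. Probe set 1435775_at read 5.88, 5.88 and 6.14 on the null arrays and 6.66, 6.20 and 6.56 on the heterozygous arrays. Every null value lay below every heterozygous value, with null replicate 3 and heterozygous replicate 2 closest together. The means were 5.97 ± 0.15 (SD, n = 3) for null and 6.48 ± 0.24 (SD, n = 3) for heterozygous callus, differing by -0.51 (SE 0.16), or 1.42-fold higher in heterozygous callus (two-sided exact permutation p = 0.1). The probe set of Clock with the highest mean, 1418659_at, read 7.34, 7.88 and 7.43 in null callus, against 7.64, 7.63 and 7.80 in heterozygous callus. Here null replicate 2 was the highest array of all and null replicates 1 and 3 the lowest, so the groups overlapped, and the difference was -0.14 (SE 0.16, 95% interval -0.53 to 0.25). Probe sets 1418660_at and 1439314_at differed by -0.18 (SE 0.20) and -0.11 (SE 0.25). Without both marrow-poor arrays 1435775_at kept a difference of -0.42, while the others stood at 0.02, 0.02 and 0.15.

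Npas2, which can stand in for Clock, lay near background. Probe set 1421037_at read 4.14, 4.08 and 3.26 in null callus, against 3.47, 3.01 and 3.97 in heterozygous callus, with 3 of the 6 arrays at or under the silent level. Each group had arrays at both ends, and the difference was 0.34 (SE 0.32, 95% interval -0.43 to 1.12). Probe set 1421036_at stayed between 3.17 and 3.59, with 4 arrays at or under the silent level, so its difference of 0.19 (SE 0.13) is not shown to lie above background.

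The Per genes encode the inhibitors that return to block the activators. Per1, with 1 probe set, read 8.92, 8.23 and 8.72 in null callus, against 8.002, 8.86 and 8.39 in heterozygous callus. The highest and the lowest array differed by 0.92, from null replicate 1 down to heterozygous replicate 1, and the values of the groups interleaved. The means were 8.62 ± 0.35 (SD, n = 3) for null and 8.42 ± 0.43 (SD, n = 3) for heterozygous callus, differing by 0.21 (SE 0.27, 95% interval -0.44 to 0.85), which turned to -0.0016 without heterozygous replicate 1, was 0.057 without null replicate 1, and stood at 0.40 or 0.43 when null or heterozygous replicate 2 was left out.

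Per2 was even across heterozygous callus and uneven across null callus. Its probe set 1417602_at read 6.62, 6.65 and 6.60 on the heterozygous arrays and 6.51, 6.08 and 6.92 on the null arrays. Null replicate 2 was the lowest of the 6 arrays and null replicate 3 the highest, with all heterozygous arrays between them. The same held for 1457350_at, at 5.89, 5.48 and 6.41 in null callus, against 5.92, 5.91 and 5.93 in heterozygous callus. The third probe set, 1417603_at, again had its lowest value, 4.39, on null replicate 2, but its highest, 4.86, on heterozygous replicate 3. Group means differed by -0.12 (SE 0.21), 0.01 (SE 0.23) and -0.09 (SE 0.15). The probe sets measure 1 gene on the same arrays and are not separate samples, so the array-to-array pattern of Per2 was seen by several probe sets while the spread within a group rests on 3 arrays.

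Per3, the member of the family least needed for rhythm, had 6 probe sets, and 4 of them lay above the silent level on all arrays. The one with the highest mean, 1441445_at, read 7.37, 7.31 and 7.58 in null callus, against 7.29, 6.97 and 7.44 in heterozygous callus, a difference of 0.19 (SE 0.16, 95% interval -0.19 to 0.56). Null replicate 3 was highest and heterozygous replicate 2 lowest. Null replicate 3 was also the highest array for the other 3 well-measured probe sets, 1421087_at (7.42), 1442243_at (7.14) and 1458176_at (7.60), as it was for both Per2 probe sets above. These 3 differed between groups by 0.04, 0.10 and 0.20, with SEs of 0.17, 0.15 and 0.25. Probe sets 1421086_at and 1460662_at, near background with 5 and 3 arrays at or under the silent level, had the other sign (-0.21 and -0.19). Across the 24 probe sets of all 10 genes, null replicate 3 was the highest array in 9 and heterozygous replicate 3 in 8, while null replicate 2 was the lowest in 7, and null replicate 1 and heterozygous replicate 2 were lowest in 6 each. The 9 came from Per2, Per3, Cry1 and Dbp only, and probe sets of the same gene are not separate observations. The share over all probe sets was not computed, so these counts describe the members alone.

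**Figure D2:**
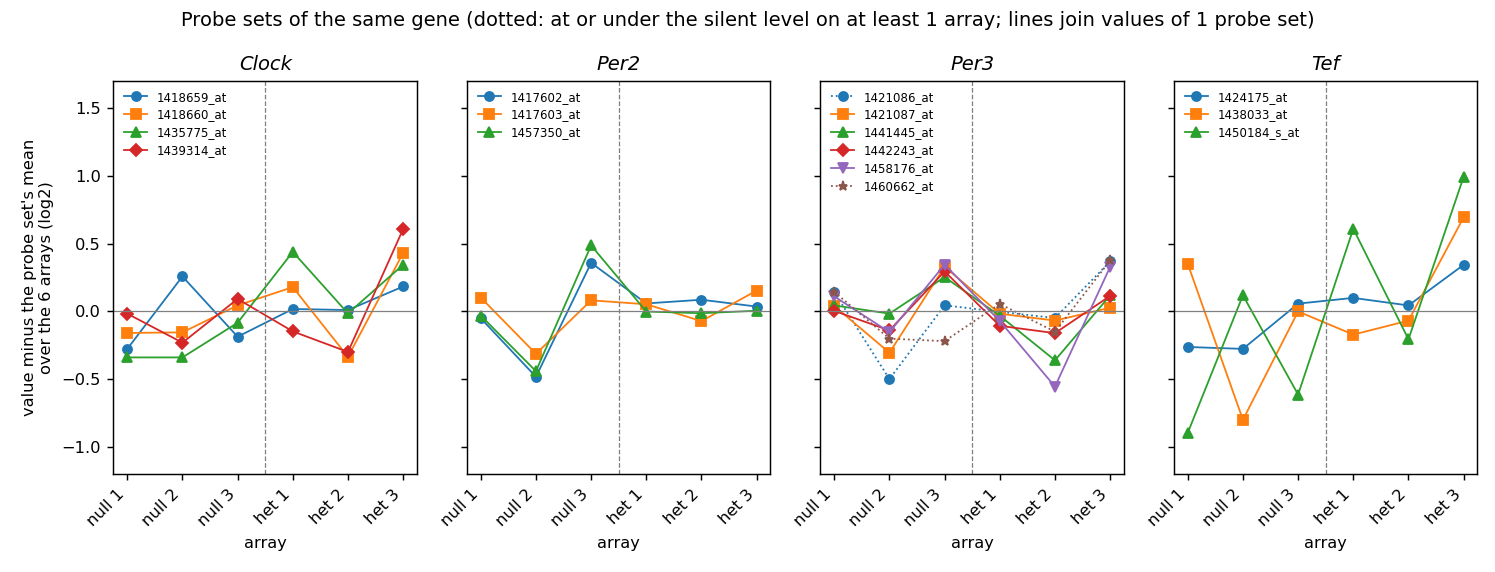
Values of each probe set of Clock, Per2, Per3 and Tef on the 6 arrays, as the log2 difference from that probe set's own mean over the arrays. Dotted lines mark probe sets at or under the silent level on at least 1 array. The 3 Per2 probe sets all dip on null replicate 2, while the 3 Tef probe sets order the arrays differently except for the high value on heterozygous replicate 3.

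The cryptochromes are the other inhibitors of the loop. Cry1 was the steadiest member: its probe set read 6.23, 6.18 and 6.32 in null callus, against 6.06, 6.29 and 6.13 in heterozygous callus. The range over the arrays, 0.26, was wider than that of only 6.03% of probe sets above the median level, and the group difference was 0.08 (SE 0.11, 95% interval -0.18 to 0.34). Cry2 read 7.72, 8.16 and 8.16 in null callus, against 8.16, 8.45 and 7.73 in heterozygous callus, a difference of -0.10 (SE 0.22, 95% interval -0.63 to 0.42). Its low arrays were the 2 that are poor in marrow genes, 1 in each group, and the other 4 lay at 8.16 or above. The part of marrow content in this value was not tested.

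Dbp is an activator at D-boxes and a direct target of the E-box loop, known for a wide daily swing in many tissues. Its probe set 1438211_s_at read 8.87, 9.20 and 9.47 in null callus, against 9.34, 9.43 and 9.43 in heterozygous callus, and 1418174_at read 8.74, 9.28 and 9.53 against 9.42, 9.22 and 9.35. Both placed null replicate 1 lowest and null replicate 3 highest, with the heterozygous arrays close together. For 1438211_s_at the means were 9.18 ± 0.30 (SD, n = 3) for null and 9.40 ± 0.05 (SD, n = 3) for heterozygous callus, differing by -0.22 (SE 0.16, 95% interval -0.61 to 0.17), and for 1418174_at -0.15 (SE 0.21). The differences rested on null replicate 1, which is marrow-poor and also carries Xist: without it they were -0.07 and 0.08. The other marrow-poor array, heterozygous replicate 3, read 9.43 and 9.35. The part of marrow content or sex in these values was not tested. Over all 6 arrays the values spanned 0.59 and 0.79, at the 43.5th and 63.2nd percentiles of the ranges of probe sets above the median level.

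Tef, the relative of Dbp, had a lower mean in null callus on all 3 probe sets. Probe set 1424175_at, the one with the highest mean, read 9.90, 9.88 and 10.22 in null callus, against 10.26, 10.21 and 10.51 in heterozygous callus. The groups met at a single point, null replicate 3 just above heterozygous replicate 2. The means were 10.001 ± 0.19 (SD, n = 3) for null and 10.32 ± 0.16 (SD, n = 3) for heterozygous callus, differing by -0.32 (SE 0.14, 95% interval -0.67 to 0.02), or 1.25-fold higher in heterozygous callus (two-sided exact permutation p = 0.2). It was -0.18 without both marrow-poor arrays and -0.20 with array weights. Probe set 1450184_s_at varied more than any other member, over 1.89, with 5.32, 6.34 and 5.61 in null callus, against 6.83, 6.02 and 7.22 in heterozygous callus. Null replicate 2 lay above heterozygous replicate 2, and the difference of -0.93 (SE 0.38) became -0.45 without both marrow-poor arrays. Probe set 1438033_at differed by -0.30 (SE 0.35) and read highest, at 6.37 and 6.71, on those marrow-poor arrays. The probe sets of Tef thus shared a sign but not an order of arrays, and the sources used here do not say which transcripts each one detects.

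Nfil3, the repressor that competes with DBP and TEF for D-boxes, read 7.06, 6.67 and 6.86 in null and 7.29 on heterozygous replicate 2, with 6.60 and 6.51 on the other heterozygous arrays. The null values lay inside the heterozygous range, and the difference was 0.06 (SE 0.23, 95% interval -0.49 to 0.61). Its sign turned in 3 of the 6 settings that left out 1 array, with values from -0.08 to 0.31. Nfil3, Per1 and Cry1 had their 3 high arrays in common: null replicates 1 and 3 and heterozygous replicate 2.

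**Figure D3:**
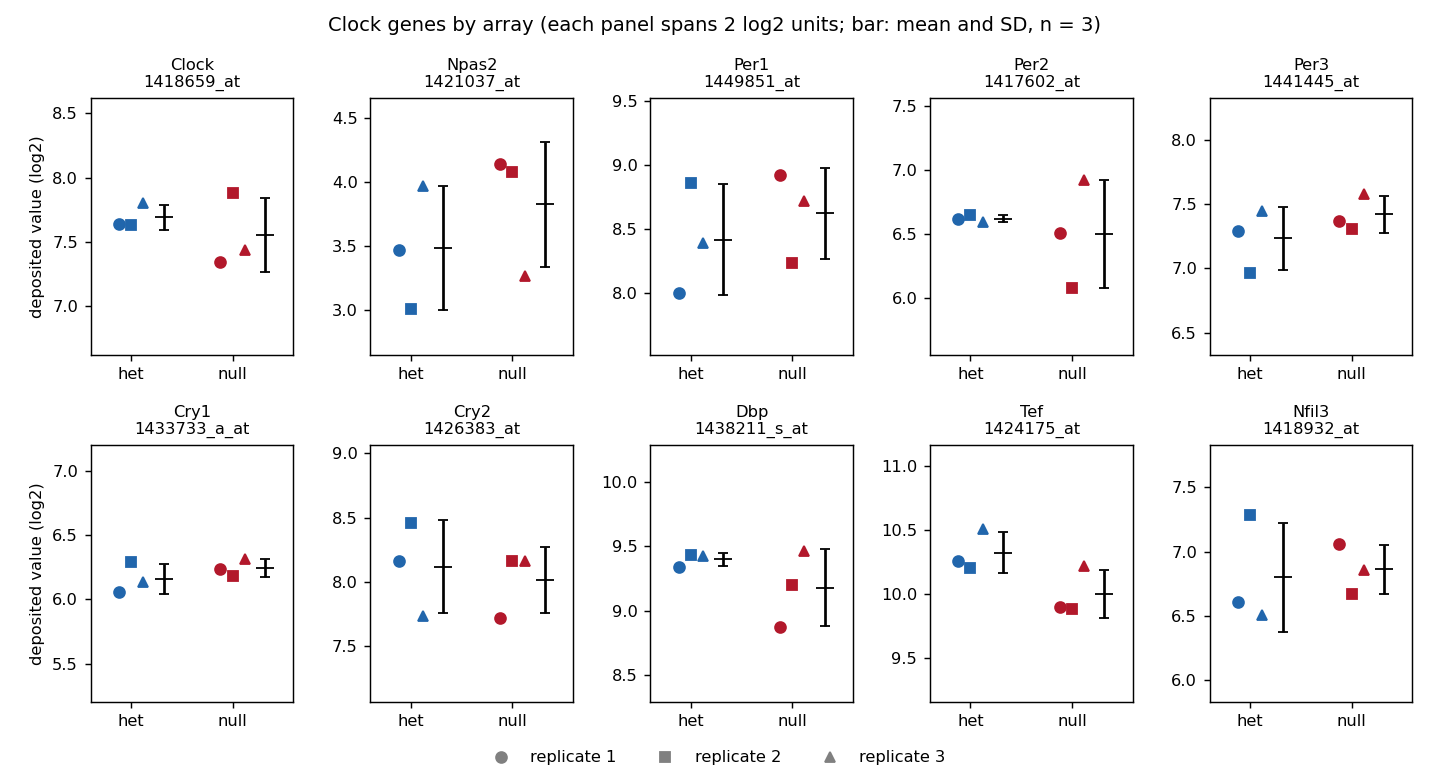
Deposited log2 value of each clock gene on each array, taken from its probe set of highest mean (blue circles, squares and triangles: heterozygous replicates 1, 2 and 3, and red: null), with the mean and SD of each group in black. Every panel spans the same 2 log2 units, and the groups overlap in all 10 panels, most narrowly for Tef.

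As a description of the hour, the 5 genes known to peak by day (Per1, Per2, Per3, Dbp, Tef) were averaged on each array, each relative to its own mean over the 6 arrays, and set against the 4 known to peak by night (Clock, Npas2, Cry1, Nfil3). The day minus night value was -0.17, -0.36 and 0.32 on the null arrays and 0.07, 0.07 and 0.07 on the heterozygous arrays. Null replicates 2 and 3 thus stood at the ends, with the heterozygous arrays between them, and the groups overlapped. On null replicate 2 the day-peaking genes averaged -0.23 and the night-peaking genes 0.13, and on null replicate 3 they averaged 0.21 and -0.11. Most of the night averages came from Npas2, which lay near background and stood 0.42 above its mean on null replicate 2 and at -0.39 on null replicate 3. Without Npas2 the night averages there were 0.027 and -0.016. Clock stood on the same side as Npas2, at 0.26 on null replicate 2 and -0.19 on null replicate 3. Cry1 and Nfil3 ran the other way on both arrays, at -0.019 and -0.16 on null replicate 2 and 0.12 and 0.026 on null replicate 3. The day minus night value without Npas2, a setting chosen after the data were seen, was -0.051, -0.26 and 0.22 on the null arrays and 0.049, -0.13 and 0.17 on the heterozygous arrays. The closeness of the heterozygous values belongs to this choice of genes and probe sets, since they ranged from -0.08 to 0.07 when the other loop genes were added and from 0.01 to 0.16 when all probe sets of a gene were averaged. Whether the hour of collection differed between the mice was not tested, as the labels give no hour.

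**Figure D4:**
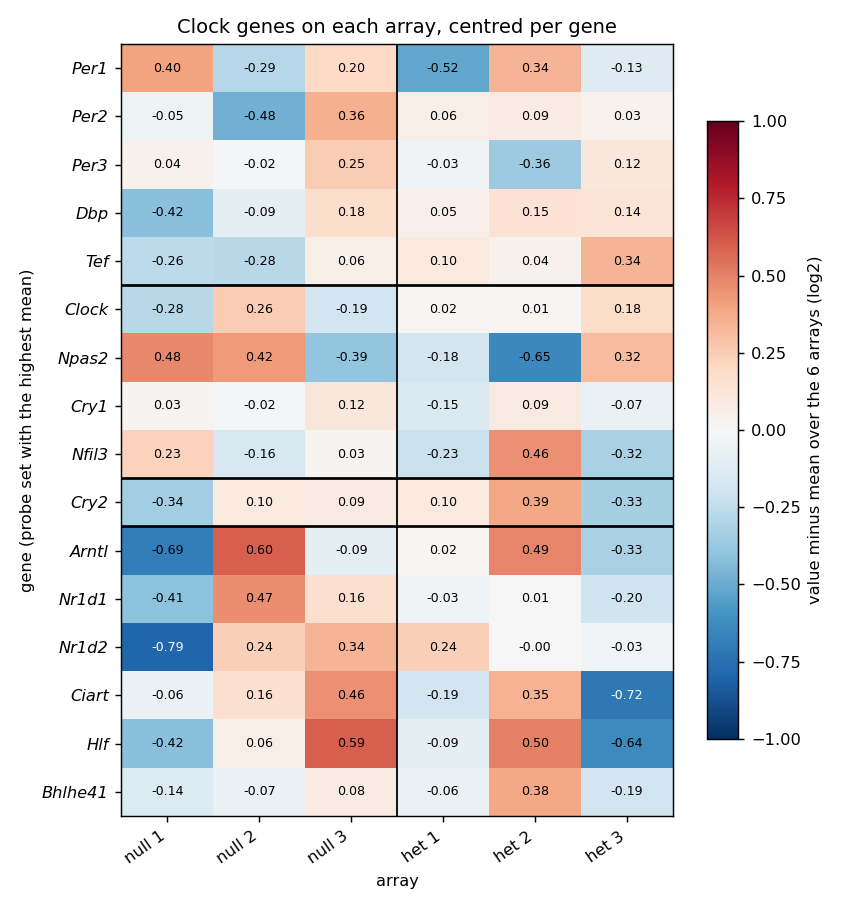
Log2 values of the 10 clock genes and 6 further loop genes (rows) on each array (columns), as differences from each gene's mean over the 6 arrays, with the value in each cell. No row has all null cells on 1 side of all heterozygous cells. Cry2, Arntl, Nr1d1, Nr1d2, Hlf and Bhlhe41 are lowest on the 2 marrow-poor arrays, null 1 and het 3.

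For several clock genes both marrow-poor arrays lay on 1 side of the other 4, by order alone. With each gene taken by its probe set of highest mean, Cry2 was the only member for which both marrow-poor arrays lay below the other 4, and no member had both above them. Of the other loop genes, 8 of 11 had both marrow-poor arrays below the rest, against 13.4% of all probe sets: Arntl, Arntl2, Nr1d1, Nr1d2, Rora, Bhlhe40, Bhlhe41 and Hlf. The share with 1 probe set per gene was not computed. Some gaps were small: the higher marrow-poor array and the lowest other array read 10.17 and 10.20 for Nr1d2, and 5.29 and 5.36 for Bhlhe41. For Hlf they read 5.59 and 5.92. Other probe sets of Arntl, Nr1d2, Rora, Bhlhe41 and Hlf were mixed. Hlf 1434735_at and Rora 1436325_at also had both arrays below, and Rora 1458145_at had both above. Arntl 1457740_at, Nr1d2 1416959_at, Bhlhe41 1457096_at and the remaining Rora probe sets did not set these arrays apart. Over all 24 member probe sets 1 had these arrays lowest and 4 had them highest (1 of Per2, 2 of Per3 and 1 of Tef), where 16.1% of all probe sets had them highest. The 2 arrays with Xist, which differ in sex-linked transcripts, lay below or above the rest for 0 of the 24, against 3.95% and 4.43% of all probe sets. These arrays were singled out after their marrow genes had been seen, so the counts are descriptions and not a comparison of groups.

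The partners of the members in the loop were read in the same way. Arntl, which encodes BMAL1, read 5.67, 6.96 and 6.27 in null callus, against 6.38, 6.85 and 6.04 in heterozygous callus (1425099_a_at, difference -0.12, SE 0.36). Nr1d1, the repressor REV-ERBα, read 8.47, 9.34 and 9.04 in null callus, against 8.84, 8.88 and 8.68 in heterozygous callus, a difference of 0.15 (SE 0.23). These probe sets of both genes were highest on null replicate 2 and lowest on null replicate 1, with the arrays between in a different order. The second Arntl probe set, 1457740_at, was instead lowest on null replicate 3 (4.18) and highest on heterozygous replicate 3 (4.76). Nr1d2 (1416958_at) differed by -0.14 (SE 0.30), Hlf (1434736_at) by 0.15 (SE 0.36) and Bhlhe41 (1421099_at), a repressor at E-boxes, by -0.08 (SE 0.17). Ciart, a repressor of the CLOCK and BMAL1 pair, differed by 0.37 (SE 0.28) and Timeless by 0.40 (SE 0.19). Of the 11 loop genes measured, 5 were higher and 6 lower in null callus, with a median of -0.08 and 0 at an unadjusted p under 0.05. Rorb, counted as higher, lay at or under the silent level on all 6 arrays, so its direction is not shown to lie above background. For Rora, an activator of Arntl, 1424034_at differed by -0.26 (SE 0.24). All 9 of its probe sets had a lower mean in null callus, but they share the arrays and the gene. None passed limma's test with adjustment, and 2 of the 9 had an unadjusted p under 0.05, where 3.69% of all probe sets did. These were 1436326_at, at 7.91, 8.02 and 7.71 on the null and 8.03, 8.41 and 8.41 on the heterozygous arrays (difference -0.40, SE 0.15), and 1455165_at, at 7.71, 8.48 and 8.23 against 8.68, 8.82 and 8.54 (-0.54, SE 0.21). For both, every null value lay below every heterozygous value, which held for 5.38% of all probe sets.

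Enzymes that set the life of PER and CRY proteins were counted in the same way. Of 10 measured, 4 were higher and 6 lower in null callus, with a median of -0.03 and 0 at an unadjusted p under 0.05. Fbxl21, counted as higher, lay at or under the silent level on all 6 arrays. Btrc, a subunit of the ligase that marks PER proteins for destruction, read 7.93, 7.98 and 7.83 in null callus, against 8.19, 8.22 and 8.03 in heterozygous callus, with every null value below every heterozygous value (difference -0.23, SE 0.11). Such a gap with null lower was found for 5.38% of all probe sets. The kinase genes Csnk1d and Csnk1e, whose products phosphorylate PER proteins, differed by -0.14 (SE 0.12) and 0.10 (SE 0.18). Among 15 output genes with a daily rhythm in many tissues, 5 were higher and 10 lower (median -0.05), again with 0 at that threshold; Usp2 differed by -0.17 (SE 0.24) and Wee1 by 0.09 (SE 0.13).

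Signals known to induce Per1 were read from their own targets. Of 14 glucocorticoid-responsive genes, with Per1 among them, 10 were higher and 4 lower in null callus (median 0.11), with 0 at an unadjusted p under 0.05, beside 9033 of 18193 genes higher and 4.49% at that threshold. Per1 itself counts among the 10, as does Lcn2. Lcn2 read 7.71 and 6.55 on the marrow-poor arrays, null replicate 1 and heterozygous replicate 3, and 11.05 to 11.39 on the others. The part of marrow content in its value was not tested. Fkbp5, a co-chaperone of the glucocorticoid receptor, read 8.35, 8.08 and 8.56 in null callus, against 7.90, 8.12 and 8.02 in heterozygous callus, a difference of 0.32 (SE 0.15), with null replicate 2 under heterozygous replicate 2. Tsc22d3, another such target, had the other sign (-0.31, SE 0.21). Of 18 immediate early and CREB-linked genes, 12 were higher and 6 lower (median 0.19), and 1 had an unadjusted p under 0.05, a share near that of all genes. That gene was Jun, lower in null callus (1417409_at, difference -0.63, SE 0.21, adjusted p = 0.999 by limma). Fosb, counted as lower, lay at or under the silent level on all 6 arrays. Sik1, a kinase induced by cAMP, differed by -0.26 (SE 0.14) and Egr1 by 0.47 (SE 0.26). Ier2 read 7.60, 7.90 and 7.45 on the null arrays, each above the 7.30, 7.43 and 7.42 of the heterozygous arrays (difference 0.27, SE 0.14). Groups without overlap, in either direction, were found for 8.95% of all probe sets. On null replicate 2, where Per1 was below its mean, Fos was at its highest, 9.002 against 7.37 to 7.90 on the other arrays.

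The spread of the members over the arrays was set beside that of other genes. The 20 member probe sets above the median level had a median range over the 6 arrays of 0.77, and all probe sets above that level one of 0.65. The gene whose pattern over the 6 arrays was nearest to that of Dbp among 11482 others above the median level was Fam160a1 (Pearson's r = 0.98), followed by Spopl, Extl1, Rgs9 and Idh3g. Pappa, Nxt1, Tcf20, Larp7 and Hk1 ran most nearly opposite to Dbp (r = -0.99 to -0.98). None of the named clock genes was among these: Nr1d2 (r = 0.81) ranked 280th and Tef (r = 0.76) 451st, while Per3 (r = -0.04) and Ciart (r = 0.08) showed hardly any likeness. Npas2 itself lay below the median level, with a mean of 3.65, and 3 of its 6 arrays were at or under the silent level. Its pattern is therefore not shown to lie above background. For Npas2 the nearest were Atm, Vasp, Ddx18, Ctsw and Lss (r = 0.99 to 0.97), and Tmem60, Tomm7, Itgb1bp1, Rpp21 and Rbm24 were most opposite (r = -0.99 to -0.98). With 6 arrays and this many genes such values are a description of these arrays, and they share each array's marrow content.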

How the data were processed

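Per the labels, the callus RNA was biotin-labelled and read on Affymetrix mouse genome arrays, 1 per sample. The authors deposited 1 log2 value per probe set and array, taken as log2 from its range. Software, background correction and normalization were not given in the sources used here. All columns are nearly alike in distribution, so a shift common to all genes would not show.

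Of 45101 probe sets, 64 controls were left out. Each of the remaining 45037 was tested with limma 3.58.1 in R 4.3.3 (two-sided, no covariate, Benjamini-Hochberg adjustment over all of them, threshold 0.05; 4 residual and 2.50 prior degrees of freedom). Exact permutation tests enumerated all 20 divisions of the arrays. The fit was tested on simulated data. Symbols came from the platform annotation, and a gene is represented by its probe set with the highest mean.

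All probe sets of the 10 members are named. Of the other lists, up to 6 genes with the lowest unadjusted p were eligible, plus Arntl, Nr1d1, Nr1d2, Ciart, Hlf and Bhlhe41. Fos, Arntl2, Lcn2 and Fosb were named after their values were seen, and the silent level and the marrow-poor arrays were set then too. Likeness to Dbp and Npas2 names 5 genes at each end. Members, lists and tests were chosen with earlier results of these data known. Some listed genes are not reported here.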

Additional observations from a re-analysis of the deposited data

How the results depend on the processing

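Over 16 other settings, 0 member probe sets passed limma's test (lowest adjusted p = 0.46, with array weights). In every setting that included them, 10 of 24 kept their direction, among them Clock 1435775_at, Tef 1424175_at and Tef 1450184_s_at. The difference could not change with an intensity trend, above the median level or with only each gene's probe set of highest mean. Those fits used the deposited values and the same groups, so they do not test direction. The fit above the median level held 20 member probe sets. Clock 1435775_at and Tef 1450184_s_at were not in the fit by highest mean. The cause of the changes below was not tested, except that fewer probe sets or arrays enter some fits.

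Without both marrow-poor arrays, the null minus heterozygous difference turned to 0.022 for Clock 1418659_at, 0.023 for Clock 1418660_at, 0.15 for Clock 1439314_at, 0.086 for Dbp 1418174_at and -0.18 for Nfil3. Array weights turned Clock 1439314_at to 0.058 and Per2 1417602_at to 0.0034. Per2 1457350_at, at 0.01 as deposited, became -0.022 with quantile normalization, -0.0087 with median centring and -0.0074 with cyclic loess.

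Leaving out 1 array at a time gave -0.28 to 0.17 for Clock 1439314_at, -0.0016 to 0.43 for Per1 and -0.30 to 0.066 for Cry2. For Per2 it gave -0.33 to 0.094 (1417602_at), -0.16 to 0.047 (1417603_at) and -0.23 to 0.23 (1457350_at). For Per3 it gave -0.11 to 0.20 (1421087_at), -0.0175 to 0.20 (1442243_at) and -0.028 to 0.41 (1458176_at). For Dbp 1418174_at it gave -0.32 to 0.076, for Tef 1438033_at -0.55 to 0.024 and for Nfil3 -0.083 to 0.31. Clock 1435775_at stayed between -0.65 and -0.42.

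Over all probe sets, the adjusted threshold was passed by 1 when the marrow score was a term of the fit, and by 0 in every other setting. Against 1660 at an unadjusted p under 0.05, array weights gave 4631, the marrow covariate 3478, leaving out both marrow-poor arrays 3453, probe sets above the median level 746, 1 probe set per gene 771, and leaving out 1 array 1048 (without null replicate 3) to 2721 (without heterozygous replicate 3). Of the members, 2 reached it as deposited, 0 with 1 probe set per gene, 0 without both marrow-poor arrays, 1 with Xist as a covariate and 0 to 3 without 1 array. Member probe sets lower in null callus numbered 14 as deposited and 5 of 10 with 1 probe set per gene. In the other settings they numbered 11 (without null replicate 2) to 17 (without null replicate 3).

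The day minus night value was 0.053 for heterozygous replicate 1 and 0.088 for heterozygous replicate 3 with quantile normalization, 0.0102 for heterozygous replicate 2 and 0.16 for heterozygous replicate 3 over all probe sets of a gene, and 0.055 and -0.084 for heterozygous replicates 1 and 3 with the other loop genes added. Without Npas2, a setting chosen after the data were seen, it was 0.049, -0.13 and 0.17 for heterozygous replicates 1, 2 and 3. Leaving out 1 array gave -0.0062 to 0.13, 0.0025 to 0.14 and 0.0022 to 0.14 for heterozygous replicates 1, 2 and 3.

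No paired analysis was possible because the labels give the mice no shared numbers. A pseudocount was not run, since the values are on the log2 scale. With 3 arrays a group, the interval of a typical probe set spans changes of moderate size, and values near the silent level have no firm order.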
